A study of Mus musculus with 14 samples.

Results

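The chemokines and their receptors were followed as a gene family in mouse epididymal fat, the visceral depot that lies beside the testis. Members were taken by name alone: every gene whose symbol is Ccl, Cxcl, Ccr or Cxcr with a number, together with Cx3cl1, Cx3cr1, Xcl1 and Xcr1. This gave 51 of the 19937 genes that the arrays measure under 1 symbol, namely 34 ligands (19 CC, 13 CXC, 1 CX3C and 1 XC) and 17 receptors (9 CC, 6 CXC, 1 CX3C and 1 XC). A further 3 rows name several Ccl21 or Ccl27 genes at once and were not used. RNA of the whole pad was hybridised to 14 Affymetrix arrays, which the labels call biological replicates. The groups were EKO mice on Western diet (4 arrays), EKO mice on normal diet (4), wild type (WT) mice on Western diet (3) and WT mice on normal diet (3). All mice were male, and both genotypes are given as C57BL6/J; EKO is a name that the labels link to apolipoprotein E without describing the allele. Either diet was eaten for 24 weeks from an age of 8 weeks, and the Western diet held 42% milk fat (labelled HFD).

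Chemokines are small proteins, most of them secreted, that steer leukocytes through G protein-coupled receptors on the cell surface. CC ligands act mainly on monocytes, macrophages, eosinophils and lymphocytes, while many CXC ligands act on neutrophils or on activated T cells. In fat, the family is best known for the Ccl2 and Ccr2 pair, through which monocytes leave the blood and enter the tissue of obese animals, where they become macrophages.

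Of the 8 members that changed in at least 1 comparison, 4 have an entry among the RefSeq promoter sequences used here, and these are shown because they moved on the same arrays: Ccl9, Ccl6 and Ccl3, neighbours on chromosome 11, and Ccr2 on chromosome 9. Each line holds the 250 bases before the transcript start that the promoter table uses, 5′ to 3′ on the strand of the gene (GRCm38.p6). For the 3 ligands that start is the end of the gene as annotated, whereas for Ccr2 it lies inside the gene, which begins at base 124101918, so the Ccr2 window is wholly within the annotated gene. They are chr11:83578637-83578886 for Ccl9, chr11:83593088-83593337 for Ccl6 and chr11:83649379-83649628 for Ccl3, all on the minus strand, and chr9:124101933-124102182 for Ccr2 on the plus strand. Capitals mark exact matches on either strand to an ETS core (GGAAGT), a PU box (GAGGAA) and a TATA box (TATAAA).
Ccl9: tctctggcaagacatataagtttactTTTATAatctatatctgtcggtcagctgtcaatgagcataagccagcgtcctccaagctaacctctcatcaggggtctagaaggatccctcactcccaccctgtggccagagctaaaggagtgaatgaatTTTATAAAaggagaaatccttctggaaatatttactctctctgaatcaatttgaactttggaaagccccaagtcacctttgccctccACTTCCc
Ccl6: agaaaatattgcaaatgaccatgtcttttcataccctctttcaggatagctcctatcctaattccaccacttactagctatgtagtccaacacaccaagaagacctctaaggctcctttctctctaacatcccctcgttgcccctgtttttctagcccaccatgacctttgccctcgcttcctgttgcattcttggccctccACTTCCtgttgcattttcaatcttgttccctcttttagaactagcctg
Ccl3: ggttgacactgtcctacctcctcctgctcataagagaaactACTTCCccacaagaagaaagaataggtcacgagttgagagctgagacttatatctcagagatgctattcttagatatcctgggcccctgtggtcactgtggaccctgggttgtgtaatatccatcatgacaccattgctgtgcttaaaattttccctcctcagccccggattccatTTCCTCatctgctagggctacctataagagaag
Ccr2: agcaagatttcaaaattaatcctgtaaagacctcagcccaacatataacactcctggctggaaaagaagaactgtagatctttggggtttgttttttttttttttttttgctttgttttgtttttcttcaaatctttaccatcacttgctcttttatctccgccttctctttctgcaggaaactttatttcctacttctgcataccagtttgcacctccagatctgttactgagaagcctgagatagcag
The ETS letters stood in all 3 ligand promoters, first base at -7 in Ccl9, -48 in Ccl6 and -209 in Ccl3. The PU box stood at -33 in Ccl3, and the TATA letters stood at -224, -94 and -92 in Ccl9, where the last pair overlap. Of 32851 promoters of the same length, 19.7% held the ETS letters, 23.2% the PU box and 12.4% the TATA letters. Among 39 promoter entries of 37 members, the ETS letters were found in 16 members, and the PU box and the TATA letters in 11 each. The ETS core and the PU box can share letters. An AP-1 motif (TGANTCA; 6.75% of promoters) and a C/EBP motif (TTGCNNAA; 9.56%) were searched as well, and of these 4 promoters Ccl9 alone held the AP-1 letters, which are not capitalised. A match is only a run of letters. The Ccr2 window held none of the 5 motifs, which says nothing of the bases before the annotated gene.

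Values are deposited log2 RMA values, on which a difference of 1 is a 2-fold difference in signal. A group level is followed by ± SD and a log2 fold change by ± its standard error. The threshold for a change was an adjusted p under 0.05 in limma (two-sided; Benjamini-Hochberg over all 19937 genes), and a gene below it is said to have passed. Apoe lay between 9.46 and 10.26 in EKO arrays and between 13.13 and 13.65 in WT arrays, so no array went against its genotype label. Array medians ran from 7.92 to 8.10, and arrays of 1 group correlated at 0.976 to 0.995. The 1208 rows of olfactory and vomeronasal receptors, taken as background, averaged 6.75 to 6.84 on 5 arrays and 6.29 to 6.56 on the other 9, and every group held arrays of both kinds. The 8 adipocyte markers averaged 12.98 to 13.26 per array, and the 5 epididymis markers 6.16 to 6.62. Of the 51 members, 11 lay at or below the highest array background of 6.84 in all 4 groups, so that a change in them would be hard to see.

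In EKO mice on Western diet 5 monocyte-attracting members were lower than in WT mice on the same diet: the ligands Ccl7, Ccl2, Ccl9 and Ccl6 and the receptor Ccr2. One member, Cxcl11, was higher. These 6 of 51 members stand against 5.69% of all 19937 genes that passed in this comparison, 1.64% higher and 4.05% lower. In WT mice the Western diet raised Ccl3, Ccr2, Ccl9 and Ccl5 and lowered Cxcl11, which is 5 of 51 members against 5.49% of all genes, 3.19% higher and 2.30% lower. In EKO mice the same diet changed no member, against 0% of all genes. Both comparisons with calls use the same 3 arrays of WT mice on Western diet, so their opposite signs do not support each other. Arrays of EKO and WT on Western diet did not overlap in 11 members, 2 higher and 9 lower in EKO, where 16.6% of all genes did not, 7.93% higher and 8.71% lower. In WT the diets did not overlap in 16 members, 14 higher and 2 lower on Western diet, where 20.0% of all genes did not, 8.77% higher and 11.3% lower.

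**Figure D1:**
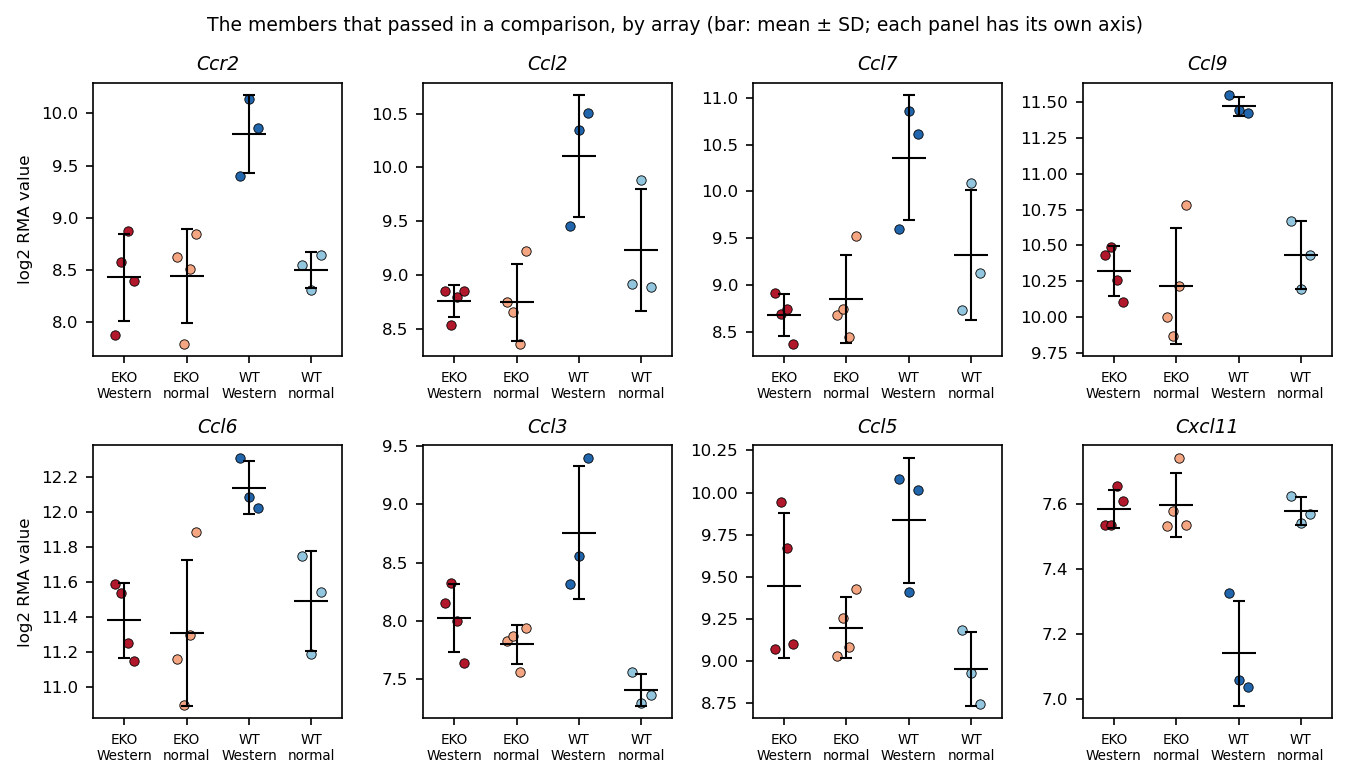
Log2 RMA values of the 8 members that passed in at least 1 comparison, 1 point per array, for EKO on Western and normal diet and WT on Western and normal diet; horizontal lines and bars give the mean ± SD, and each panel has its own vertical axis. WT arrays on Western diet stand above the other 3 groups in Ccr2, Ccl9 and Ccl6 and below them in Cxcl11, while EKO arrays of the 2 diets overlap in all 8 panels.

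Ccr2 is the receptor by which inflammatory monocytes follow Ccl2 and Ccl7. Its level was 7.88, 8.58, 8.87 and 8.40 in EKO mice on Western diet, 8.62, 7.80, 8.51 and 8.85 in EKO mice on normal diet, 9.40, 10.14 and 9.86 in WT mice on Western diet, and 8.55, 8.31 and 8.64 in WT mice on normal diet. Every WT array on Western diet lay above all 11 others, and those 11 overlapped between groups. Ccr2 was 2.58-fold lower in EKO than in WT mice on Western diet (log2 fold change -1.37 ± 0.25, adjusted p = 0.0058 by limma). The diet raised it 2.46-fold in WT (1.30 ± 0.27, adjusted p = 0.0116), whereas in EKO the diet difference was -0.01 ± 0.23, with a 95% interval of -0.51 to 0.49.

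Ccl2, the main attractant of Ccr2-bearing monocytes, was measured at 8.85, 8.54, 8.79 and 8.85 in EKO mice on Western diet and at 9.46, 10.34 and 10.51 in WT mice on Western diet. On normal diet it was at 8.75, 8.66, 8.36 and 9.22 in EKO and at 8.91, 9.88 and 8.89 in WT. The genotypes did not overlap on Western diet, but replicate 2 of the WT mice on normal diet reached the range of the WT mice on Western diet. Ccl2 fell 2.54-fold in EKO against WT on Western diet (-1.35 ± 0.27, adjusted p = 0.0103). The diet difference in WT, 0.87 ± 0.29, did not pass (adjusted p = 0.105).

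Ccl7, a second Ccr2 ligand, gave the widest gap between genotypes in the family. It was at 8.92, 8.68, 8.74 and 8.37 in EKO mice on Western diet, against 9.60, 10.86 and 10.62 in WT mice on Western diet. On normal diet it was at 8.67, 8.74, 8.45 and 9.52 in EKO, against 8.73, 10.08 and 9.13 in WT. Replicate 2 of the WT mice on normal diet was again the high one, and replicate 4 stood out among the EKO mice on normal diet. Ccl7 was 3.21-fold lower in EKO than in WT mice on Western diet (-1.68 ± 0.33, adjusted p = 0.00945), and its diet difference in WT was 1.04 ± 0.36 (adjusted p = 0.119). Without replicate 2 of the WT mice on normal diet both Ccl2 and Ccl7 passed in the diet comparison of WT.

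Ccl8 and Ccl12 complete the group of genes next to Ccl2. Ccl8, which in the mouse acts through Ccr8, was at 8.41, 10.04, 8.69 and 8.68 in EKO mice on Western diet, 8.28, 8.13, 8.90 and 8.47 in EKO mice on normal diet, 8.51, 10.19 and 9.86 in WT mice on Western diet and 7.62, 8.37 and 8.24 in WT mice on normal diet. It had the largest diet difference of the family in WT, 1.44 ± 0.43, with no overlap between the diets, but also the widest spread and an adjusted p = 0.0676. Ccl12, another ligand of Ccr2 in the mouse, stayed at background, with group means of 6.69, 6.72, 6.84 and 6.71 in EKO mice on Western diet, EKO on normal diet, WT on Western diet and WT on normal diet.

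Ccl9 and Ccl6 are rodent CC ligands of Ccr1, made in quantity by macrophages and other myeloid cells. Ccl9 was at 10.43, 10.49, 10.26 and 10.11 in EKO mice on Western diet, 9.87 to 10.78 over the 4 arrays of EKO on normal diet, 11.55, 11.44 and 11.42 in WT mice on Western diet, and 10.67, 10.20 and 10.43 in WT mice on normal diet. The 3 WT arrays on Western diet were tight and well apart from the rest. Ccl9 had the smallest adjusted p of the family between genotypes on Western diet, 2.22-fold lower in EKO (-1.15 ± 0.18, adjusted p = 0.00213). It rose 2.05-fold with the diet in WT (1.04 ± 0.19, adjusted p = 0.00546), and the difference in EKO was 0.11 ± 0.17 (95% interval -0.25 to 0.46).

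Ccl6 was at 11.59, 11.54, 11.25 and 11.15 in EKO mice on Western diet, 11.16, 10.90, 11.30 and 11.89 in EKO mice on normal diet, 12.31, 12.09 and 12.02 in WT mice on Western diet, and 11.75, 11.19 and 11.54 in WT mice on normal diet. The pattern was that of Ccl9 with smaller steps. It was 1.69-fold lower in EKO than in WT mice on Western diet (-0.76 ± 0.20, adjusted p = 0.0375), and its diet difference in WT was 0.65 ± 0.21 (adjusted p = 0.0989). This call was lost on the arrays of lower background (adjusted p = 0.0949) and without any 1 of 8 arrays (adjusted p up to 0.112): each WT array on Western diet, replicates 2, 3 and 4 of the EKO mice on Western diet, and replicate 3 of either genotype on normal diet. Ccr1, the receptor of both ligands, was dim. Its group means were 6.42 ± 0.09 and 6.68 ± 0.29 in EKO on Western and normal diet (SD, n = 4 each). In WT they were 6.81 ± 0.15 and 6.84 ± 0.29 (SD, n = 3 each), and all 4 means lay at or below the highest array background. Single arrays on normal diet reached 7.14 in WT and 7.11 in EKO. Between genotypes on Western diet its arrays did not overlap, lower in EKO (-0.38, unadjusted p under 0.05 by limma), but it did not pass.

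Ccl3 and Ccl5 are inflammatory ligands of monocytes, macrophages and T cells. Ccl3 was at 8.16, 8.32, 8.00 and 7.64 in EKO mice on Western diet, 7.83, 7.87, 7.56 and 7.94 in EKO mice on normal diet, 8.32, 8.55 and 9.40 in WT mice on Western diet, and 7.56, 7.30 and 7.37 in WT mice on normal diet. It rose 2.54-fold with the diet in WT (1.35 ± 0.23, adjusted p = 0.00315), the smallest adjusted p of the family there. The diet difference in EKO was 0.23 ± 0.20 (95% interval -0.19 to 0.65). Between genotypes on Western diet it was -0.73 ± 0.21, adjusted p = 0.0604, and the lowest WT array was no higher than the highest EKO array; this difference did not pass.

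Ccl5 was at 9.07, 9.95, 9.67 and 9.10 in EKO mice on Western diet, 9.03, 9.26, 9.09 and 9.43 in EKO mice on normal diet, 10.08, 9.41 and 10.02 in WT mice on Western diet, and 9.18, 8.93 and 8.75 in WT mice on normal diet. It rose 1.84-fold with the diet in WT (0.88 ± 0.23, adjusted p = 0.0362), and the WT arrays of both diets did not overlap. That call was lost under 3 of 10 other ways of processing (adjusted p from 0.0568 to 0.0719) and without any 1 of 4 WT arrays (up to 0.167). Replicates 2 and 3 of the EKO mice on Western diet lay within the range of the WT mice on that diet, and the genotype difference was -0.39 ± 0.21 (adjusted p = 0.344). Ccl4, which is closely related to Ccl3 and its neighbour, showed nothing of this: its diet difference in WT was 0.01 ± 0.12, at a mean of 6.88 ± 0.19 in WT mice on Western diet and 6.87 ± 0.07 in WT mice on normal diet (SD, n = 3 each), hardly above background.

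Over the 11 members assigned to monocytes and macrophages (9 ligands, Ccr1 and Ccr2), 5 fell and 0 rose in EKO against WT on Western diet, with a median log2 fold change of -0.73 beside 0.03 over all genes. Of all genes 4.05% fell and 1.64% rose there. In WT the diet raised 4 of the 11 and lowered 0, with a median of 0.88 beside -0.02 over all genes. That diet raised 3.19% of all genes in WT and lowered 2.30%. In EKO 0 of the 11 changed with diet, with a median of 0.01 beside 0.01 over all genes. Among the other 40 members Cxcl11 alone passed in any comparison. The role groups were assigned for this report, and the labels do not give them. Ccl8 was placed here although its receptor Ccr8 was placed with members that guide lymphocytes. Cx3cr1, a receptor of patrolling monocytes, and Cxcl16, a ligand of macrophages, were placed elsewhere, and neither passed. The contrast of the 11 with the other 40 rests on these choices.

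How far the counts hold depends on the WT arrays. Without replicate 2 or replicate 3 of the WT mice on Western diet, 2 members passed between genotypes on that diet, Ccl9 and Ccr2 both times. In the diet comparison of WT, 3 passed without replicate 2 (Ccl3, Ccl5 and Ccl9), 2 without replicate 3 (Ccl3 and Ccl9) and 8 without replicate 1 of the WT mice on Western diet, and 3 without replicate 3 of the WT mice on normal diet (Ccl3, Ccl9 and Ccr2). Ccl5 lost its call without replicate 2 or 3 of the WT mice on normal diet or replicate 1 or 3 of the WT mice on Western diet. Ccr2 missed the threshold in that comparison without replicate 2 of the WT mice on normal diet, or replicate 2 or 3 of the WT mice on Western diet (adjusted p up to 0.0602). With the array background as a block, 10 members passed in the diet comparison of WT and 7 between genotypes on Western diet; on the 9 arrays of lower background alone, 10 and 5 passed. The 5 arrays of higher background were not fitted alone, since 3 of the groups hold 1 of them each.

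**Figure D2:**
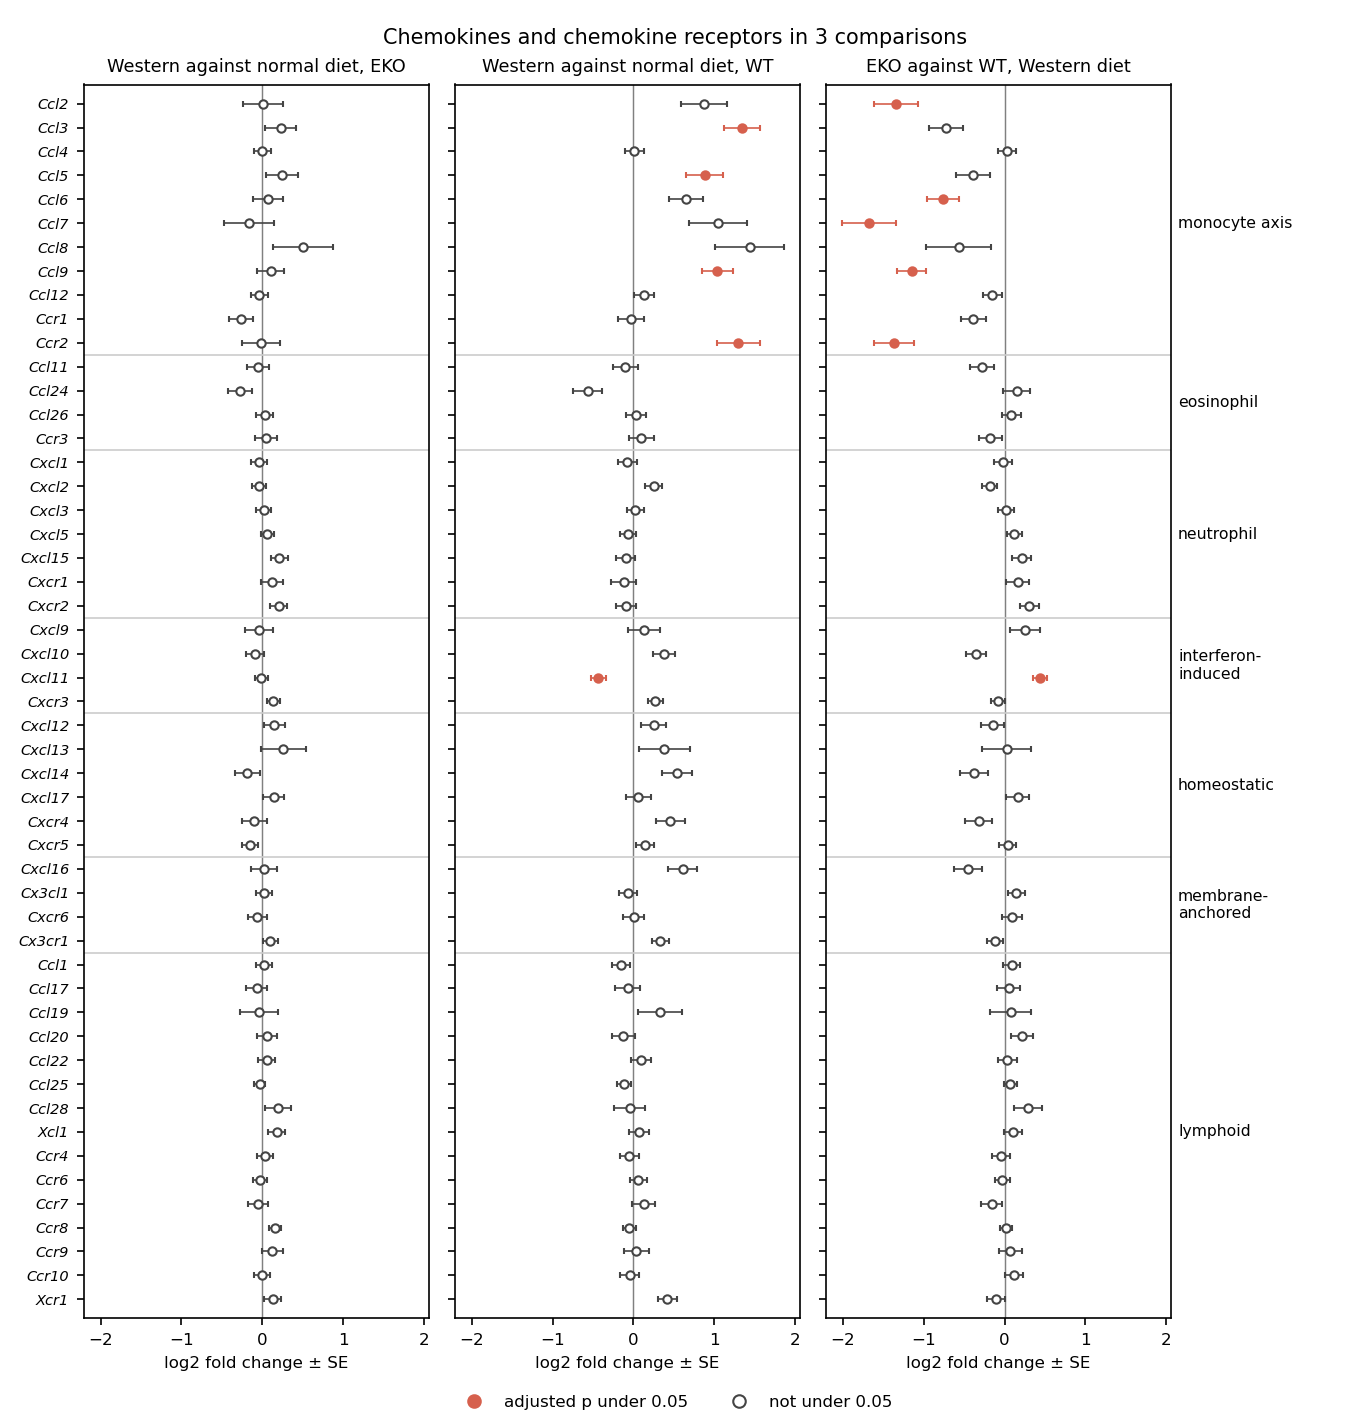
Log2 fold change ± SE of all 51 members, grouped by role, for the diet in EKO, the diet in WT and EKO against WT on Western diet; filled points passed an adjusted p under 0.05. Filled points lie in the monocyte group and at Cxcl11, and the panel for the diet in EKO has none.

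Markers of macrophages, which both make and follow these ligands, moved on the same arrays. Of 12 macrophage markers 7 fell and 0 rose in EKO against WT on Western diet, beside 4.05% of all genes lower and 1.64% higher. Among the 7, Ctss, a lysosomal protease, fell by 1.59 ± 0.24 and Cd68 by 1.08 ± 0.24. In WT the diet raised 7 (Mpeg1 by 2.0 ± 0.30) and lowered 1, Mertk (-0.77 ± 0.16), beside 3.19% of all genes higher and 2.30% lower. Their mean per array ran from 9.82 to 10.34 in EKO mice on Western diet, 9.52 to 10.47 in EKO mice on normal diet, 10.65 to 11.10 in WT mice on Western diet and 9.83 to 10.08 in WT mice on normal diet. None of the 12 lay at background in all groups.

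The 7 measured markers of inflammatory and lipid-associated macrophages showed wider gaps. Their mean per array was 9.41 to 9.97 in EKO mice on Western diet and 9.17 to 10.16 in EKO mice on normal diet, against 11.25 to 11.53 in WT mice on Western diet and 9.33 to 9.77 in WT mice on normal diet. Of the 7, 6 fell in EKO against WT on Western diet, led by the proton pump subunit gene Atp6v0d2 (-3.47 ± 0.43), and 6 rose with the diet in WT; none lay at background in all groups. Itgax, the integrin that marks inflammatory macrophages of fat, was 8.03 ± 0.09 in EKO mice and 10.06 ± 0.17 in WT mice on Western diet (SD, n = 4 and 3). In a bulk sample, fewer cells of a type and less RNA per cell cannot be told apart. Other cell markers moved on these arrays too: of 6 mesothelial markers 1 was higher in EKO than in WT mice on Western diet and 5 fell with the diet in WT, where their mean was 9.32 to 9.47 on Western and 10.32 to 10.79 on normal diet. Of 8 adipocyte markers, Slc2a4 (0.58 ± 0.12) and Adipoq (0.46 ± 0.09) were higher and Lep (-1.14 ± 0.26) lower in EKO than in WT mice on Western diet, and Slc2a4 (-0.60 ± 0.13) and Adipoq (-0.45 ± 0.09) fell with the diet in WT. Of 5 fibroblast and progenitor markers Col1a1 was lower in EKO than in WT mice on Western diet (-0.62 ± 0.10), and 0 passed with the diet in WT. Of 7 neutrophil markers 0 passed between genotypes on Western diet, and 1, S100a8, rose with the diet in WT (0.57 ± 0.14). The shares over all genes given with the macrophage markers apply to these lists too. A list with 1 call is too short to read against them. The part of these cell markers in the chemokine differences was not tested.

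**Figure D3:**
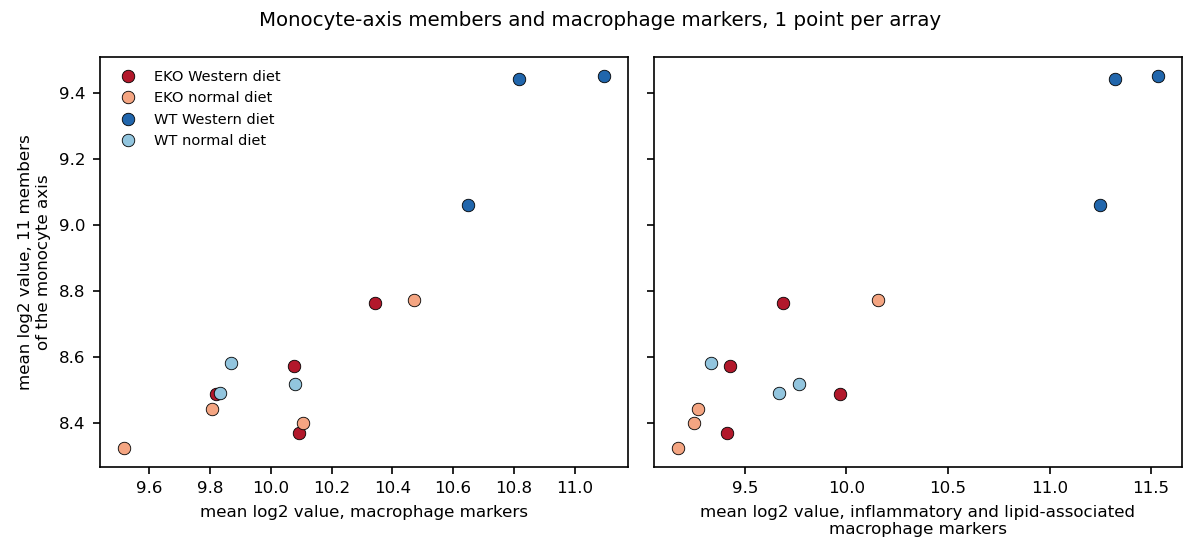
Mean log2 value of the 11 monocyte-axis members (vertical) against the mean of the 12 macrophage markers (left) and of the 7 measured inflammatory and lipid-associated macrophage markers (right), 1 point per array. The 3 WT arrays on Western diet lie apart from the other 11 on both axes of both panels.

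Array by array, the mean of the 11 monocyte-axis members was 8.49, 8.76, 8.57 and 8.37 in EKO mice on Western diet, 8.44, 8.32, 8.40 and 8.77 in EKO mice on normal diet, 9.06, 9.44 and 9.45 in WT mice on Western diet, and 8.49, 8.58 and 8.52 in WT mice on normal diet. The lowest WT array on Western diet was thus above the highest of all others. Within groups the highest array on this mean was also the highest in the 12 macrophage markers in EKO mice on Western diet (replicate 2), EKO mice on normal diet (replicate 4) and WT mice on Western diet (replicate 3), but not in WT mice on normal diet, where replicate 2 was highest on this mean and replicate 3 in the markers. In the inflammatory and lipid-associated markers the highest EKO array on Western diet was replicate 1 (9.97), with replicate 2 at 9.69.

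The 3 ligands of Cxcr3, which draw activated T cells and are induced by interferon, did not move together. Cxcl11 was at 7.53, 7.54, 7.65 and 7.61 in EKO mice on Western diet, 7.53, 7.58, 7.74 and 7.53 in EKO mice on normal diet, 7.33, 7.06 and 7.04 in WT mice on Western diet and 7.62, 7.54 and 7.57 in WT mice on normal diet. Here the WT arrays on Western diet were the lowest of all 14. Cxcl11 was 1.36-fold higher in EKO than in WT mice on Western diet (0.44 ± 0.09, adjusted p = 0.00945) and fell 1.35-fold with the diet in WT (-0.44 ± 0.09, adjusted p = 0.0139). RefSeq lists the mouse gene as a transcribed pseudogene on this assembly. The diet call of Cxcl11 was lost when only the WT arrays were fitted (adjusted p = 0.0843) and without replicate 2 or 3 of the WT mice on Western diet or replicate 3 of the WT mice on normal diet, and the genotype call without replicate 2 or 3 of the WT mice on Western diet.

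Cxcl10 did not pass in any comparison. It averaged 8.34 ± 0.20 in EKO and 8.69 ± 0.23 in WT mice on Western diet (SD, n = 4 and 3), a difference of -0.35 ± 0.13 (adjusted p = 0.13). Cxcl9 averaged 11.10 ± 0.36 and 11.14 ± 0.27 in EKO on Western and normal diet (SD, n = 4 each), against 10.84 ± 0.15 and 10.71 ± 0.22 in WT (SD, n = 3 each), and passed in no comparison. Their receptor Cxcr3 was at 7.95 ± 0.06 in EKO and 8.03 ± 0.13 in WT mice on Western diet, and its diet difference was 0.13 ± 0.08 in EKO and 0.27 ± 0.09 in WT (adjusted p = 0.946 and 0.115). Of 9 measured T and NK cell markers 0 passed between genotypes on Western diet and 1 rose with the diet in WT, Cd3e (0.40 ± 0.11, adjusted p = 0.0418). That diet raised 3.19% of all genes in WT, and 1 call among 9 is too few to read against this share.

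Neutrophil attractants gave little signal. Of 7 members of this group (Cxcl1, Cxcl2, Cxcl3, Cxcl5, Cxcl15, Cxcr1 and Cxcr2), 5 lay at background in all groups, and 0 passed in any comparison. Cxcl1, the ligand of Cxcr2 that was above background, averaged 7.64 ± 0.09 in EKO and 7.66 ± 0.09 in WT mice on Western diet (SD, n = 4 and 3), a difference of -0.02 ± 0.11 with a 95% interval of -0.25 to 0.21. Cxcl2 had group means from 5.91 to 6.16, Cxcl3 from 6.42 to 6.46, Cxcl5 from 5.99 to 6.11, Cxcl15 from 6.11 to 6.32 and Cxcr2 from 5.45 to 5.75. Ly6g, a defining marker of neutrophils, was at background as well (6.52 ± 0.17 in EKO and 6.46 ± 0.27 in WT mice on Western diet). Only 1 of the 7 neutrophil markers lay at background in all groups, however, and S100a8 rose with the diet in WT (0.57 ± 0.14).

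Eosinophil attractants did not pass either. Ccl24, a ligand of Ccr3 made by alternatively activated macrophages, was at 8.19, 8.43, 8.31 and 8.35 in EKO mice on Western diet, 8.69, 8.03, 8.71 and 8.94 in EKO mice on normal diet, 8.04, 8.15 and 8.32 in WT mice on Western diet and 8.63, 8.70 and 8.89 in WT mice on normal diet. It was lower in all 3 WT arrays on Western diet than in any on normal diet, with a difference of -0.57 ± 0.18, but the adjusted p was 0.0789; in EKO the diet difference was -0.27 ± 0.15 (adjusted p = 0.946). Ccl11 averaged 10.38 ± 0.08 in EKO and 10.66 ± 0.21 in WT mice on Western diet (SD, n = 4 and 3), and 10.44 ± 0.31 in EKO and 10.76 ± 0.15 in WT mice on normal diet. Their receptor Ccr3 lay at background, with group means from 6.61 to 6.83.

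The 6 homeostatic members, which act in resting tissue and in lymphoid organs, passed in no comparison. Cxcl14, a ligand made by epithelia, was at 8.24, 8.17, 8.24 and 8.17 in EKO mice on Western diet and 8.01, 8.59, 8.19 and 8.76 in EKO mice on normal diet, against 8.38, 8.38 and 8.99 in WT mice on Western diet and 7.96, 8.13 and 8.02 in WT mice on normal diet. Its diet difference in WT was 0.54 ± 0.18 (adjusted p = 0.113). Cxcl13, which draws B cells to lymphoid tissue, varied among arrays of 1 group (10.26 ± 0.71 in WT mice on Western diet; SD, n = 3), and its genotype difference on Western diet was 0.02 ± 0.30. Its receptor Cxcr5 lay at background. All 15 members that guide lymphocytes and dendritic cells to lymphoid organs and barriers, Ccl1 and its receptor Ccr8 among them, failed to pass in every comparison, with log2 fold changes from -0.16 to 0.29 between genotypes on Western diet and from -0.16 to 0.42 for the diet in WT.

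In the diet comparison of WT, 18 members had an unadjusted p under 0.05, the 5 that passed included, against 16.9% of all genes. Several members missed the adjusted threshold although the diets did not overlap in WT, and 3 of them were chosen for description after their values were seen. They are Cxcl16 (0.61 ± 0.18, adjusted p = 0.0728), a membrane-anchored ligand and scavenger receptor of macrophages, Xcr1 (0.42 ± 0.12, adjusted p = 0.0582), a receptor of cross-presenting dendritic cells, and Cx3cr1 (0.33 ± 0.10, adjusted p = 0.0822), a receptor of patrolling monocytes. The others were Ccl8, Ccl6, Ccl24, Cxcl14, Cxcl10, Cxcr3, Cxcl12 and Cxcr5. Among 5 dendritic cell markers Clec9a (0.74 ± 0.12) and Flt3 (0.41 ± 0.10) rose with the diet in WT, and both fell in EKO against WT on Western diet. The other 3 passed in neither comparison. Of the 5 values, 3 were positive and 2 negative in each comparison, with medians of 0.01 and 0.04, so the list did not move as a whole.

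The diet in EKO gave 0 calls in the family by limma, and 1 member, Ccr8, at an unadjusted p under 0.05, where 4.43% of all genes reached that level. Log2 fold changes ran from -0.27 (Ccl24) to 0.51 (Ccl8), and the smallest adjusted p was 0.946. After Ccr8 (0.16 ± 0.07), the smallest p values belonged to Cxcl15 (0.21 ± 0.11), Cxcr2 (0.21 ± 0.11), Ccr1 (-0.26 ± 0.14) and Ccl24 (-0.27 ± 0.15), of which all but Ccl24 are members at background. In 2 members, Cxcr3 and Ccr8, the Western diet arrays all lay above the normal diet arrays, beside 0.973% of all genes, and 2.56% did not overlap in either direction. No alternative processing changed the count of 0.

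On normal diet the genotypes did not differ in any member by limma, where 0.00502% of all genes passed, which is 1 gene, Apoe. At an unadjusted p under 0.05 there were 4 members, Cxcr5 (0.34 ± 0.11), Ccr8 (-0.19 ± 0.07), Cxcl9 (0.43 ± 0.19) and Ccl11 (-0.32 ± 0.15), and 1.13% of all genes. The genotypes did not overlap in Cxcr5, higher in EKO, and in Ccr8, lower in EKO, where 1.72% of all genes did not, 0.848% higher and 0.868% lower. Cxcl14 followed (0.35 ± 0.17), and every alternative gave 0 calls in the family here too. The members that differed on Western diet had genotype differences on normal diet of -0.06 ± 0.25 (Ccr2), -0.48 ± 0.27 (Ccl2), -0.47 ± 0.33 (Ccl7), -0.22 ± 0.18 (Ccl9), -0.18 ± 0.20 (Ccl6) and 0.02 ± 0.09 (Cxcl11), each with an adjusted p that rounds to 1.

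Whether the diet acted differently in the genotypes was tested as the interaction, the diet effect in EKO minus that in WT. Of the 51 members 0 passed by limma, where 0.482% of all genes did, and 10 had an unadjusted p under 0.05, where 10.8% of all genes did. The interaction was -1.31 ± 0.36 for Ccr2 and -0.93 ± 0.25 for Ccl9 (adjusted p = 0.133 each), -1.12 ± 0.30 for Ccl3 (adjusted p = 0.129), -1.21 ± 0.47 for Ccl7 (adjusted p = 0.334), 0.42 ± 0.12 for Cxcl11 (adjusted p = 0.167) and -0.73 ± 0.24 for Cxcl14 (adjusted p = 0.236). All 11 monocyte-axis members had a value below 0, from -1.31 to -0.01 (Ccl4), where 8560 of all 19937 genes were below 0. The 11 values share the same 3 WT arrays on Western diet, and the group was chosen with earlier results known. Their common sign is therefore no separate support. A different diet effect in EKO and WT was therefore not established for any single member, although the diet passed for 5 in WT and for 0 in EKO. Without replicate 1 of the WT mice on Western diet 3 members passed (Ccl3, Ccr2 and Cxcl11), without replicate 2 of the EKO mice on normal diet 1 did (Ccr2), and with array weights 13 did.

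CC ligand genes sit in 2 runs on chromosome 11 in the RefSeq gene order of GRCm38.p6, a run being members with at most 5 protein-coding genes between neighbours. The run Ccl2, Ccl7, Ccl11, Ccl12, Ccl8 and Ccl1 had 2 members lower in EKO than in WT mice on Western diet and 0 that passed with the diet in WT, with diet values from -0.16 to 1.44. The run Ccl5, Ccl9, Ccl6, Ccl3 and Ccl4 had 2 lower in EKO and 3 raised by the diet in WT, with diet values from 0.01 to 1.35. In the first run Ccl11, next to Ccl7, had a genotype difference on Western diet of -0.28 ± 0.15, and Ccl1, at the far end, one of 0.09 ± 0.11; neither passed. Ccl12, at background in all groups, and Ccl4, hardly above it, had diet differences in WT of 0.13 ± 0.12 and 0.01 ± 0.12. Neither rose by as much as Ccl8 (1.44) or Ccl3 (1.35), while a fall in them would be hard to see. On chromosome 9, the run Ccr9, Cxcr6, Xcr1, Ccr1, Ccr3 and Ccr2 had 1 member that passed in either comparison, Ccr2. On chromosome 5, the 5 neutrophil ligands had 0, and the run Cxcl9, Cxcl10 and Cxcl11 had 1, Cxcl11. Of all genes 4.05% were lower and 1.64% higher in EKO than in WT mice on Western diet. The diet raised 3.19% of all genes in WT and lowered 2.30%. Runs of so few genes are too small to read against those shares.

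**Figure D4:**
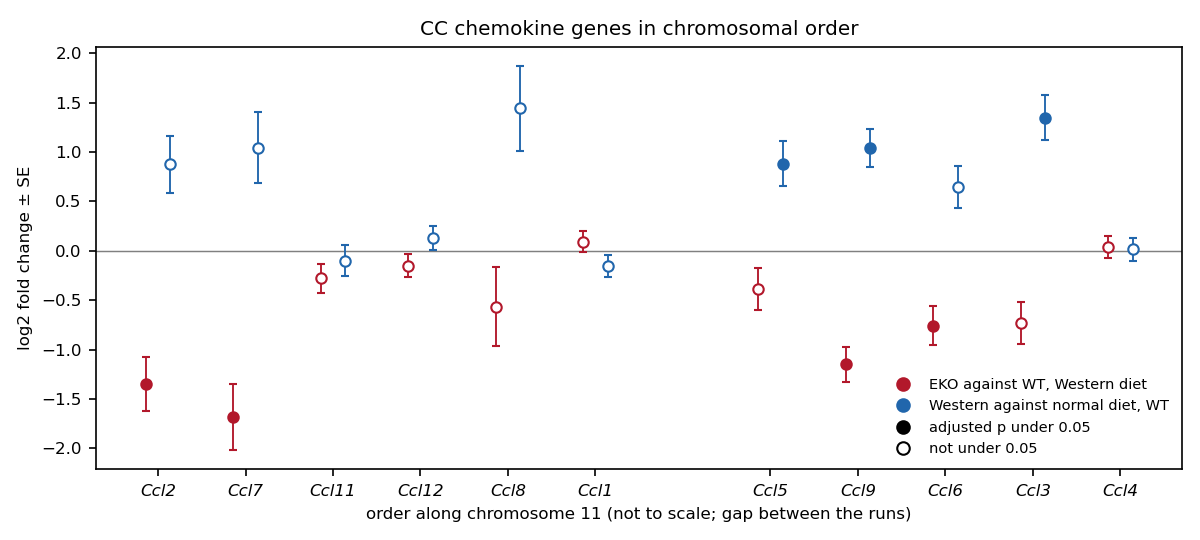
Log2 fold change ± SE of 11 CC ligand genes in the order of chromosome 11 (not to scale) for EKO against WT on Western diet and for the diet in WT; filled points passed an adjusted p under 0.05. Filled points stand at Ccl2, Ccl7, Ccl5, Ccl9, Ccl6 and Ccl3. Ccl12 and Ccl4 lie at or hardly above background, where a fall would be hard to see.

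Downstream of the receptors, 36 signalling genes were measured, among them G protein subunits, the kinase and exchange factors of leukocyte migration and the RGS proteins that switch the signal off. In EKO against WT on Western diet 8 fell and 0 rose, beside 4.05% of all genes lower and 1.64% higher. The median was -0.35 beside 0.03 over all genes. In WT the diet raised 9 and lowered 0, beside 3.19% of all genes higher and 2.30% lower. The median there was 0.29 beside -0.02. Rgs1, which restrains chemokine receptor signalling in leukocytes, was 6.57 ± 0.25 in EKO mice on Western diet and 6.44 ± 0.20 in EKO mice on normal diet (SD, n = 4 each), against 8.15 ± 0.23 in WT mice on Western diet and 6.46 ± 0.18 in WT mice on normal diet (SD, n = 3 each). All groups but WT on Western diet were at background, so Rgs1 was at least 2.70-fold lower in EKO than in WT mice on Western diet (adjusted p = 4.91e-05) and at least 2.94-fold higher with the diet in WT (adjusted p = 6.3e-05). Each bound takes the higher of the array background and the value of the gene itself on every array of the dim group.

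Rgs1 was also the signalling gene that passed in the interaction (adjusted p = 0.00426). Dock2, an exchange factor needed for leukocyte migration, fell by 1.04 ± 0.21 in EKO against WT on Western diet and rose by 1.09 ± 0.23 with the diet in WT. Pik3r5, a subunit of the phosphoinositide kinase that acts behind these receptors, fell by 0.56 ± 0.12 and rose by 0.63 ± 0.13, and Rgs18 fell by 1.22 ± 0.27 and rose by 1.29 ± 0.29. These are genes of leukocytes in general, and they moved on the arrays on which the macrophage markers did. Both sets of differences use the same WT arrays on Western diet. The part of the macrophage markers in the change of these signalling genes was not tested.

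Of 19 measured genes that cut, anchor or bind chemokines, 7 fell and 0 rose in EKO against WT on Western diet, with a median of -0.45. Of all genes 4.05% fell and 1.64% rose there. With the diet in WT 4 rose and 1 fell, beside 3.19% of all genes higher and 2.30% lower. Ctss and Mmp12 of this list were already counted among the macrophage markers above, so the lists are not separate. Mmp12, the macrophage elastase, which trims chemokines, fell by 2.45 ± 0.45 in EKO against WT on Western diet and rose by 2.49 ± 0.48 with the diet in WT. The proteoglycan genes Gpc1 (-0.70 ± 0.15) and Sdc3 (-0.51 ± 0.13), whose sugar chains hold chemokines at the cell surface, fell in EKO. Mmp9 was the gene lowered by the diet in WT (-1.31 ± 0.22, adjusted p = 0.0033). Among 15 atypical receptors and chemokine-like genes, Ppbp, a platelet chemokine, was higher in EKO than in WT mice on Western diet (0.88 ± 0.19, adjusted p = 0.0148), and Cd74, the receptor of the cytokine Mif, was lower (-0.64 ± 0.18, adjusted p = 0.0491). Of 18 genes of the cytokine, interferon and NF-kB routes that induce chemokines, Irf5 (-0.84 ± 0.14) and Nfkb2 (-0.57 ± 0.13) were lower in EKO mice on Western diet, and with the diet in WT Irf5 alone passed (0.71 ± 0.15). Those counts, 2 and 1 of 18, stand beside 5.69% of all genes between genotypes on Western diet and 5.49% for the diet in WT, so 1 of 18 is near the share over all genes and is no result about the inducers. The counts among the 15 atypical and chemokine-like genes, 2 between genotypes on Western diet and 1 for the diet in WT, are too few to read against those shares.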

How the data were processed

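Expression was measured on 14 Affymetrix arrays. The deposited log2 values were made by the authors with RMA, per the submitters' processing notes; its version is not given in the sources used here. Of 34760 rows, 21640 name 1 gene symbol, 1321 several and 11799 none, and 21553 were matched to current symbols by Entrez ID, with 0 changed. Each gene was represented by its probe set with the highest mean over the 14 arrays (954 genes had several), which left 19937 genes, all tested with no filter on dim values. limma 3.58.1 in R 4.3.3 fitted 1 mean per group over all 14 arrays, two-sided, with Benjamini-Hochberg adjustment over all genes; figures were drawn with matplotlib 3.10.9. The number of arrays limits the precision, and nothing says whether the replicates share a cage or litter. The array background is the mean of 1208 olfactory and vomeronasal receptor rows, and a group mean at or below its highest value, 6.84, was treated as a bound.

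The text names members that passed in any comparison, the 5 with the smallest p in each comparison with fewer than 5 calls, and the receptors or ligands paired with these; of each other list, up to 4 genes, those with the largest rise and fall and the smallest p. Ccl4, Cxcl10, Cxcl16, Xcr1 and Cx3cr1 fall outside this rule and were chosen after their values were seen. The members, role groups, marker lists and pathway lists were chosen with earlier results of these data known. On simulated data with 100 genes changed at each size among 19937, the fit of the diet in WT found 90% of the genes given a log2 change of 1 and 33% of those given 0.5. For the diet in EKO it found 91% and 45%. Each gene was drawn independently with its own spread, so array-wide shifts such as the higher background were absent. The simulated diet in EKO gave 145 calls, against 0 in the data, which makes the adjusted threshold easier to reach. These shares are therefore not the power of the real comparisons. Alternatives were median centring, quantile normalization, a limma prior with trend and robust, array weights, leaving out the dimmest 25% of genes, the mean of all probe sets, fits of the compared arrays alone, a replicate block, a background block, the arrays of lower background alone and leaving out each array. Promoters are RefSeq sequences of GRCm38.p6 for 37 of the 51 members.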

Additional observations from a re-analysis of the deposited data

Results flagged for a closer look

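Ccr1 in replicate 2 of the EKO mice on Western diet was at 6.55, while the other 3 replicates lay between 6.37 and 6.38. The gap to its nearest neighbour was 0.931 of the range of the group, above the critical value for 4 samples. All 4 values lie below the highest array background of 6.84, and 54 groups were looked at, of which chance would flag about 1 in 20.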

How the results depend on the processing

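In EKO on Western against normal diet and between genotypes on normal diet, the count of members that passed was 0 under all 24 alternatives. For the diet in WT the count of 5 became 8 with quantile normalization (1735 against 1094 of all genes), 19 with array weights (5224), 3 with only the arrays of the compared groups (479), and 10 both with array background as a block (2007) and on the arrays of lower background (2152); leaving out 1 array gave 2 to 8. Between genotypes on Western diet, the count of 6 became 21 with array weights (6789 against 1134 of all genes), 2 to 6 without 1 array, and 5 to 7 otherwise. The interaction count of 0 became 13 with array weights (2338 against 96 of all genes) and 1 on the arrays of lower background (566), and was 0 to 3 without 1 array. The cause of these shifts was not tested. Fits that leave arrays out also rest on fewer arrays, which was not separated from the loss of a particular array.

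Over 264 alternative values of the 11 differences that passed, 235 passed as well, 29 kept their direction but missed the threshold, and 0 reversed. Ccl3 and Ccl9 passed under every alternative for the diet in WT, as did Ccl9 and Ccr2 between genotypes on Western diet. Ccl5 was lost for the diet in WT with only the compared arrays (adjusted p = 0.065), under the replicate block (0.0568) and on the arrays of lower background (0.0719). Cxcl11 was lost for the diet in WT with only the compared arrays (0.0843), and Ccl6 between genotypes on Western diet on the arrays of lower background (0.0949). Same-numbered replicates did not all deviate together (correlations of their deviations from -0.593 to 0.644). For replicate 1 the correlation was positive in every comparison checked, from 0.162 between genotypes on normal diet to 0.644 on Western diet. Among the other replicates both signs occurred. The numbers were not treated as pairs in the main fit. With the replicate block 7 members passed for the diet in WT, 7 between genotypes on Western diet and 0 in each other comparison. The number of arrays, and for 11 members a signal at background, limit what can be detected.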
